A study of Mus musculus with 24 samples.

Results

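Lacrimal gland stem cell (LGSC) spheres of passage 2 were compared between day 14 and day 5 of culture, the widest span of culture time among the libraries used. The comparison was defined by the culture time and passage in the sample labels, and it took 5 libraries, 3 of day 14 and 2 of day 5, out of 24 samples listed for the series. Another day 5 sample was not analysed here. The question was how the expression programme of the spheres differed late and early in the same culture, in cells that were otherwise passaged every week.

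All 5 libraries came from C57BL/6 mice, from the LG of adult animals 6 to 8 weeks old. The cells were embedded in Matrigel, an extract of basement membrane, and fed a serum-free medium with the growth factors EGF, FGF10 and Wnt3A and with the kinase inhibitor Y-27632, so that both groups shared these agents and differed in culture time. The labels give a replicate number for each library, and they do not say whether libraries of one day came from separate animals or cultures, so p-values measure the spread between these libraries, which may be technical. The RNA of whole spheres was purified with poly-T beads, and in such bulk samples fewer cells of a type and less RNA per cell cannot be told apart.

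A dividing cell copies its DNA in S phase with helicase, polymerase and nucleotide-synthesis enzymes, whose genes are largely driven by E2F factors. It then separates the copies in mitosis with cyclin B, the kinase Plk1, kinetochore proteins and the anaphase activator Cdc20, whose genes share a promoter element called CHR (cell cycle genes homology region) and CCAAT boxes. The LG epithelium makes antimicrobial tear proteins such as lactoferrin, lipocalin and peptidoglycan recognition proteins, and epithelial cells also release chemokines and interleukins.

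Genes of cell division were lower at day 14 than at day 5. Of 41 mitosis genes tested, 29 fell between day 5 and day 14 and none rose, and of 45 DNA replication genes 21 fell and none rose, against 192 falls and 85 rises among all 15734 genes tested. In the whole comparison 1.22% of the genes fell, 0.540% rose and 1.76% were called in either direction. These calls rest on the replicate number as a block in the fit, without which 2 genes were called in all. Promoters of 4 genes that fell are shown because they carry the CHR or E2F letters, by which the 2 lists differ further on. They are RefSeq windows of 300 bases on GRCm38.p6, from 250 bases before the transcription start to 50 bases after it, written 5′ to 3′ along the gene. In Plk1 (chr7:122159185-122159484, plus strand), Cdc20 (chr4:118437294-118437593, minus strand) and Ccnb2 (chr9:70421505-70421804, minus strand) capitals mark the CHR letters TTTGAA and the CCAAT letters. In Mcm5 (chr8:75109259-75109558, plus strand) they mark the E2F letters, a pair of overlapping matches on opposite strands, and the CCAAT letters. Ccnb2 and its window were chosen after the values were seen.
Plk1: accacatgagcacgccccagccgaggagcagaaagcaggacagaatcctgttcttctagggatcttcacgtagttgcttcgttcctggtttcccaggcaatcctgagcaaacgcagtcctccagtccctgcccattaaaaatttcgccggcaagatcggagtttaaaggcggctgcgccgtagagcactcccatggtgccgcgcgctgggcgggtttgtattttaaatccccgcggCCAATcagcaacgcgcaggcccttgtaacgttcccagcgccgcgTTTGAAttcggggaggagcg
Cdc20: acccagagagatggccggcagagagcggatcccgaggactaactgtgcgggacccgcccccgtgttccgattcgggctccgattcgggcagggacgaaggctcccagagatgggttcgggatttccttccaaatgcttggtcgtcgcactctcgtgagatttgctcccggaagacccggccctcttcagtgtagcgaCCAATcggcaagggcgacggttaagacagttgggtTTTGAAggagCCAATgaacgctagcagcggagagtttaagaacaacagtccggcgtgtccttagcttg
Ccnb2: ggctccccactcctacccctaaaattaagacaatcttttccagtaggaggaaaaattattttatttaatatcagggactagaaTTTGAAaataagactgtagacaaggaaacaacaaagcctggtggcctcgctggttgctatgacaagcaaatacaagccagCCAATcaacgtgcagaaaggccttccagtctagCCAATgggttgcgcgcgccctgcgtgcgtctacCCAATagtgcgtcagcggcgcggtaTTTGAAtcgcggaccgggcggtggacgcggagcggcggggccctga
Mcm5: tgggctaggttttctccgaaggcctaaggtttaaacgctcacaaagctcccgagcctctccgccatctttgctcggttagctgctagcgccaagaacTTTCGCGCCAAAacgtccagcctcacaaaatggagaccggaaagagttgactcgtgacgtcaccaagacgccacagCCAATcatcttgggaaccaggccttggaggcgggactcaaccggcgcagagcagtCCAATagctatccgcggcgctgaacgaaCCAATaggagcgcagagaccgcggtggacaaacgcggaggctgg

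Expression is given in FPKM, the fragments of a gene scaled to its length in kilobases and to the sequencing depth of the library. Reads recovered from the steps of the values numbered 8025471 and 7656186 at day 5 and 7201152 to 7897285 at day 14. A gene was called when the difference of day 14 minus day 5, fitted with limma on log2(FPKM + 1), had a p-value under 0.05 after Benjamini-Hochberg adjustment. The fit held the 11 passage 2 libraries of days 5, 7, 10 and 14 with the replicate number as a block, and a gene was tested if its 5 libraries averaged 0.5 FPKM or more. At an unadjusted p under 0.05 stood 22.0% of these genes. The added 1 makes log2 fold changes of weakly expressed genes too small. The smallest adjusted p of all genes was 0.0165.

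The libraries numbered 2 stood apart in several keratin and cornified envelope genes, from number 1 at day 5, where no library numbered 3 was analysed, and from numbers 1 and 3 at days 7, 10 and 14. In the libraries numbered 2, the FPKM of Krt1, a keratin of stratified epidermis, was 109 at day 5 and 193 at day 14, against 0.481 at day 5 and 0.0918 and 0.345 at day 14 in the others. Crct1, a gene of the cornified envelope, was at 268 and 384 FPKM in the libraries numbered 2, against 0.297 at day 5 and 0 and 5.32 at day 14. Krt18, a keratin of simple epithelium, lay the other way, at 139 and 152 FPKM in the libraries numbered 2 against 710 at day 5 and 1734 and 1142 at day 14. The replicate number was a block in the fit, as the rule of the comparison asked.

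The number of calls depended on that block and on single libraries. With the 11 libraries and no replicate block, 2 genes were called in place of 277, both of them lower, with 2764 genes at an unadjusted p under 0.05. In fits of the 5 libraries alone limma called 0 genes with a fixed block, with no block and with a random block, with 1549, 1979 and 2464 genes at an unadjusted p under 0.05 and smallest adjusted p-values of 0.331, 0.163 and 0.0934. The fixed block of 5 libraries leaves 1 residual degree of freedom. Without the libraries of day 7, without those of day 10, without day 14 replicate 2 and without the 4 libraries numbered 2, limma called 0 genes in each fit, with 2643, 2918, 2244 and 1782 at an unadjusted p under 0.05. Without day 14 replicate 1 it called 1010 genes, 652 of them lower. Under each of these fits the 277 genes kept the direction of their log2 fold change, which the choice of the genes on the same libraries largely fixes. The median of the mitosis genes was −1.91 without the 4 libraries numbered 2. It was −1.28 without day 5 replicate 1 and −1.93 without day 5 replicate 2. Each of these fits leaves 1 library at day 5.

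Among the mitosis genes, Plk1, a kinase that drives entry into and passage through mitosis, was at 78.8 and 77.5 FPKM in the day 5 libraries and at 15.7, 15.8 and 12.04 in the day 14 libraries. These values formed groups that did not overlap, and the mean decreased 5.39-fold (log2 fold change −2.25 ± 0.32, SE; adjusted p = 0.0232, limma). Cdc20, which activates the ligase that starts anaphase, was at 201 and 189 FPKM at day 5 and at 30.2, 51.4 and 29.2 at day 14. Its mean was 195 ± 8.32 FPKM (SD, n = 2) at day 5 and 36.9 ± 12.6 (SD, n = 3) at day 14, and limma gave an adjusted p of 0.0271. Ccnb1, the cyclin partner of Cdk1, was at 46.1 and 47.9 FPKM at day 5 and at 7.56, 12.6 and 7.42 at day 14. For Plk1, Cdc20 and Ccnb1 the day 5 libraries lay close together, and each of the 3 day 14 libraries lay below both.

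Kinetochore and spindle genes moved in the same direction. Ndc80, which ties kinetochores to microtubules, was at 29.0 and 34.5 FPKM at day 5 and at 4.18, 7.96 and 5.19 at day 14 (log2 fold change −2.22 ± 0.21, SE; adjusted p = 0.0165, limma). Cenpe, a kinetochore motor, was at 16.5 and 21.02 FPKM at day 5 and at 2.30, 4.69 and 3.18 at day 14. Kif2c, a kinesin that takes microtubules apart, was at 17.8 and 21.9 FPKM at day 5 and at 2.06, 5.56 and 3.39 at day 14. In these 3 genes day 14 replicate 2 was the highest of the day 14 libraries, and it was still below both day 5 libraries. Fam83d, a spindle protein, had the largest fall of the list (log2 fold change −2.34), from 10.7 and 20.8 FPKM to 1.10, 3.32 and 1.57. Kif18b, another microtubule-depolymerising kinesin, was at 22.6 and 36.5 FPKM at day 5 and at 3.80, 7.68 and 5.19 at day 14. Of the 41 members tested, 40 had day 14 values below both day 5 values, against 17.8% of all genes tested (32.2% did not overlap in either direction), and all 41 had a log2 fold change below 0, against 49.5%. The median log2 fold change of the list was −1.66, against 0.01 for all genes tested. The mitosis list held 66 genes, of which 6, Mki67 among them, were listed at 0 in all 11 passage 2 libraries, and Gapdh, which every cell uses, was also listed at 0. A listed 0 in these values therefore cannot be read as absence of expression. The exception to the separation was Cdc25b, a phosphatase that activates Cdk1, at 7.35 and 9.53 FPKM at day 5 and at 1.99, 10.4 and 2.45 at day 14, and it was named after its values were seen.

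**Figure D1:**
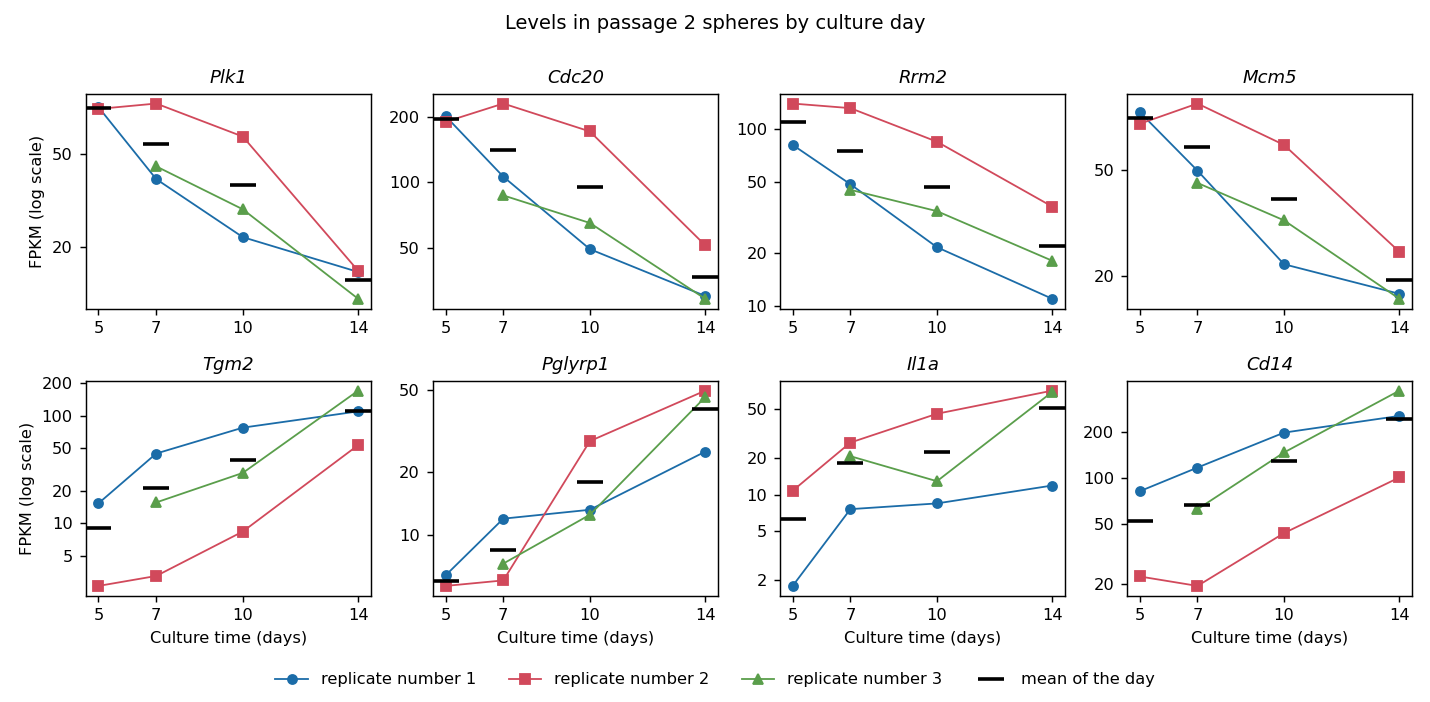
FPKM on a log axis against culture day in the 11 passage 2 libraries, with replicate number 1 as circles, 2 as squares and 3 as triangles, lines joining libraries of one number, and the day mean as a bar. Plk1, Cdc20, Rrm2 and Mcm5 were lower in each day 14 library than in both day 5 libraries, and Tgm2, Pglyrp1, Il1a and Cd14 were higher.

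In the DNA replication list, Rrm2, the small subunit of the reductase that makes deoxynucleotides, was at 80.9 and 138 FPKM at day 5 and at 11.01, 36.3 and 18.02 at day 14 (log2 fold change −2.24 ± 0.27, SE; adjusted p = 0.0182, limma). Its partner Rrm1 was at 40.0 and 50.4 FPKM at day 5 and at 9.14, 19 and 11.6 at day 14. In both subunits the libraries numbered 2 were the higher at day 5 and at day 14, so the difference between the days was read within a number. Mcm5, a subunit of the replicative helicase, was at 83.1 and 75.1 FPKM at day 5 and at 17.1, 24.6 and 16.3 at day 14 (adjusted p = 0.0320, limma). Orc1, of the complex that marks replication origins, was at 6.29 and 7.29 FPKM at day 5 and at 0.903, 1.49 and 1.59 at day 14. Prim1, the primase subunit, was at 16.3 and 24.7 FPKM at day 5 and at 2.78, 8.89 and 4.67 at day 14. Chaf1b, which loads histones on new DNA, and Gins1, of the helicase complex, also fell, with log2 fold changes of −1.40 and −1.39. The list median was −1.06. Of the 45 members, 37 had day 14 values below both day 5 values, against 17.8% of all genes tested, and 1 had values above them, against 14.5%.

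Not every member of the list passed the test. Gins4, of the same helicase complex as Gins1, was at 74.4 and 84.4 FPKM at day 5 and at 54.0, 48.8 and 47.6 at day 14 (log2 fold change −0.62), and Rpa3, of the single-strand binding complex, was at 64.7 and 72.2 FPKM at day 5 and at 47.7, 45.1 and 46.5 at day 14 (−0.56). In both genes the groups did not overlap, and neither passed the test (adjusted p = 0.104 and 0.116, limma). They were named after their values were seen. Of the 37 replication-dependent histone genes tested by symbol, a group chosen after seeing the calls, 4 fell (Hist1h2ag, Hist1h2ao, Hist1h2bj and Hist1h3c), against 1.22% of all genes tested. In 18 of the histone genes the day 14 values lay below both day 5 values, against 17.8% of all genes tested. These genes are near-identical copies between which the counting could split reads, and most of their mRNA has no poly(A) tail, while the libraries were made from poly(A) RNA.

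Of 25 cell cycle regulators tested, 2 fell and none rose, against 1.22% and 0.540% of all genes tested. E2f2, a transcription factor of S phase genes, was at 4.84 and 12.96 FPKM at day 5 and at 1.63, 1.54 and 1.01 at day 14. Rbl1, the pocket protein p107, was at 10.6 and 16.0 FPKM at day 5 and at 3.97, 7.78 and 4.38 at day 14. Cdkn2b, a CDK inhibitor, was abundant at both times and did not pass the test, with 304 and 275 FPKM at day 5 and 465, 227 and 306 at day 14 (log2 fold change 0.10 ± 0.21, SE; adjusted p = 0.819, limma). The cyclin G1 gene Ccng1 was at 380 and 471 FPKM at day 5 and at 449, 178 and 331 at day 14, and the values of the days overlapped.

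**Figure D2:**
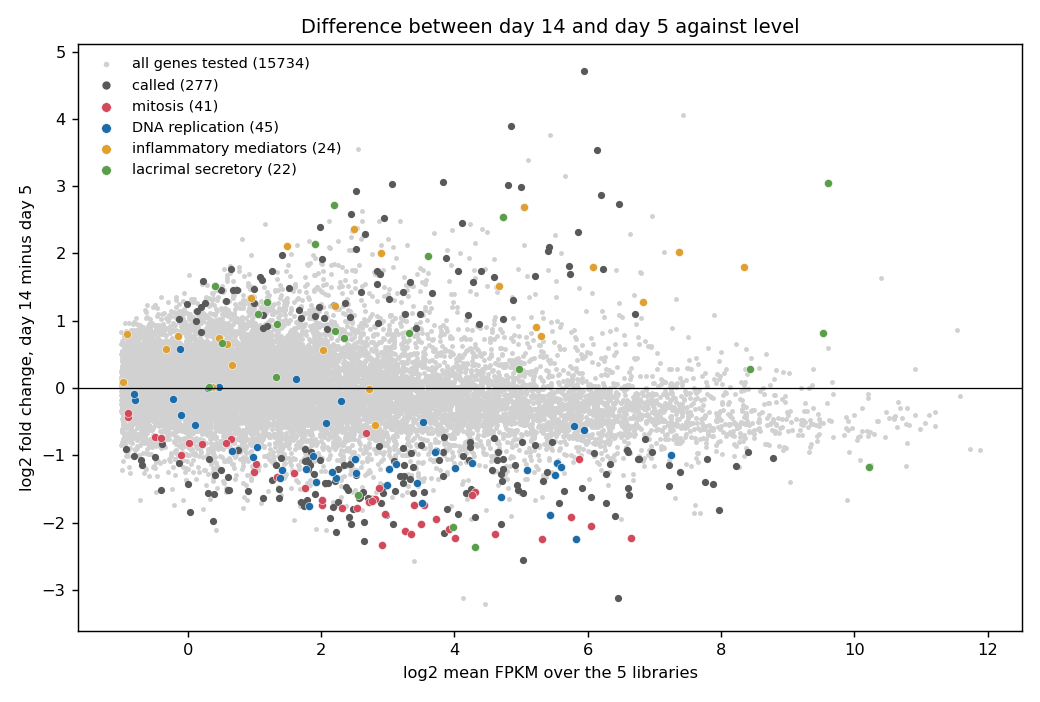
Log2 fold change of day 14 minus day 5 against log2 mean FPKM over the 5 libraries for the 15734 genes tested in grey, the 277 called genes in dark grey and 4 gene lists in colour. The 41 mitosis genes lie below 0 at every level of expression, and most of the 24 inflammatory mediators lie above 0.

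The libraries of days 7 and 10 placed these genes between the ends. At the median of the 41 mitosis genes the day 7 mean was 62.2% of the day 5 mean, the day 10 mean 46.5% and the day 14 mean 24.0%. For the 45 DNA replication genes these medians were 77.7%, 59.5% and 41.0%, and for all genes tested 96.3%, 99.0% and 100%. The day means ignore the replicate number, and no library numbered 3 was analysed at day 5. Summed over the 41 mitosis genes, number 1 was at 981 FPKM at day 5 and 548 at day 7. Number 2 was at 1105 and 998 FPKM. The day means were lower at each of the 3 later days than at the day before for 37 of the 41 mitosis genes and 34 of the 45 DNA replication genes, against 13.1% of all genes tested. Taken one step at a time, limma called 0 genes between day 5 and day 7, between day 7 and day 10 and between day 10 and day 14, with 1542 (9.80%), 759 (4.82%) and 904 (5.75%) genes at an unadjusted p under 0.05. No gene passed the test in a single step.

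The course differed between replicate numbers. Among libraries numbered 1, Plk1 was at 78.8 FPKM at day 5, 38.9 at day 7, 22.0 at day 10 and 15.7 at day 14. Among those numbered 2, it was at 77.5, 81.7, 59.1 and 15.8 FPKM on the same days. The numbered 1 series was lower at each later day for all 41 mitosis genes, while the numbered 2 series was so for 25 of them. The series numbered 3, which begins at day 7, was lower at each later day for 31 of the 41. This difference between series was not tested.

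**Figure D3:**
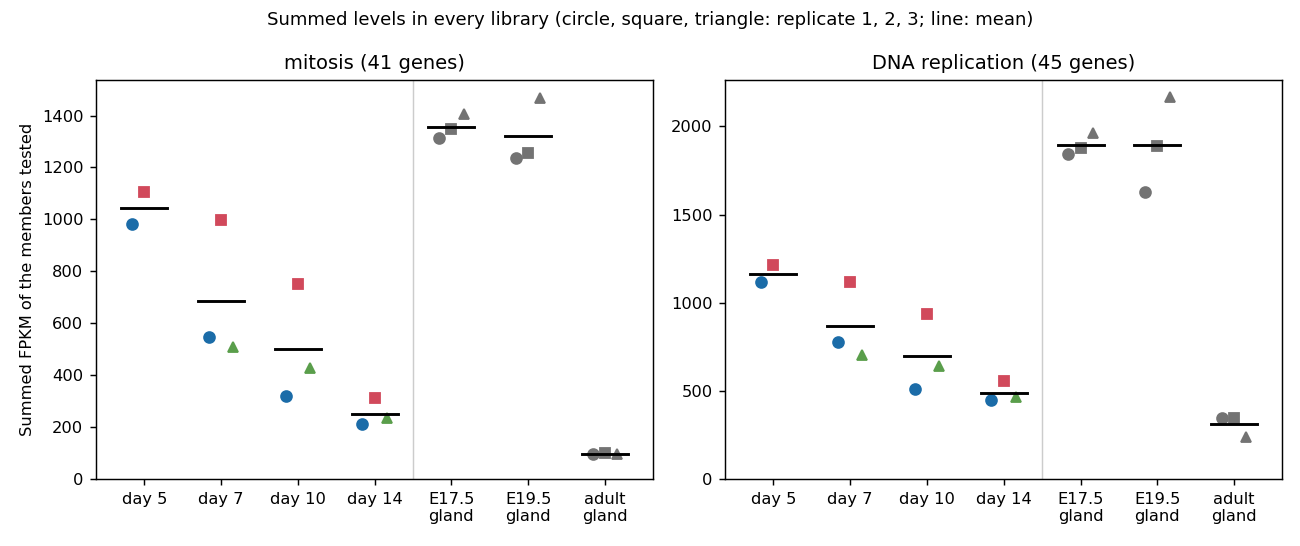
Summed FPKM of the tested mitosis genes and DNA replication genes in each passage 2 sphere library by culture day and in each library of embryonic and adult LG, with circles, squares and triangles for replicates 1, 2 and 3 and a line for the mean. The 3 day 14 libraries lie below both day 5 libraries in both panels and above the 3 adult gland libraries.

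The same genes were read in the gland itself, whose libraries had no part in choosing the calls. Summed over the 41 mitosis genes, the level was 981 and 1105 FPKM at day 5, 213 to 312 at day 14, 1314 to 1406 in E17.5 LG, from embryos, and 96.5 to 102 in adult LG. The day 14 spheres thus lay between the day 5 spheres and the adult gland, and none of the passage 2 sphere libraries reached the embryonic level. For the DNA replication genes the sums were 1117 and 1216 FPKM at day 5, 453 to 556 at day 14, 1842 to 1964 in E17.5 LG and 242 to 350 in adult LG. All 41 mitosis genes and 43 of the 45 DNA replication genes were higher in each of the 3 E17.5 libraries than in each adult library, against 28.6% of all genes tested. Of all 192 genes that fell in the spheres 144 (75.0%) were so, and of the 85 that rose 44 (51.8%) were lower in each embryonic library than in each adult one, against 24.1% of all genes tested. In 2 adult libraries the tested lacrimal secretory genes summed to 1675000 and 1853000 FPKM, against 258200 in the third and at most 4375 in any sphere library of passage 2, and the part of this in the levels of other genes in adult LG was not tested.

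The promoter windows were compared by their letters. Of the genes tested, 7286 had a window, the first one listed being taken for each gene, and 37 of the mitosis and 36 of the DNA replication genes were among them. The CHR letters TTTGAA on either strand were in 25 of the 37 mitosis windows (67.6%), in 4 of the 36 DNA replication windows (11.1%) and in 12.5% of the windows of all genes tested. CCAAT was in 27 of the 37 mitosis windows (73.0%), in 22 of the 36 DNA replication windows (61.1%) and in 38.9% of all. The E2F letters, any of TTTGGCGC, TTTCGCGC, TTTCCCGC and TTTGCCGC on either strand, were in 2 mitosis windows (5.41%), in 11 DNA replication windows (30.6%) and in 3.90% of all. The windows shown above were chosen for their CHR letters (Plk1, Cdc20 and Ccnb2) or E2F letters (Mcm5), and each also held CCAAT. Of the 124 genes that fell and had a window, 39 (31.5%) held the CHR letters and 13 (10.5%) the E2F letters. Of the 82 of them outside both lists 20 (24.4%) held CHR and 9 E2F. Since the lists do not hold every gene of cell division, the genes outside them are not free of such genes. Among the 46 genes that rose and had a window, 5 (10.9%) held CHR and 0 held E2F. The share with CHR was 70.4% of 27 mitosis genes called and 60.0% of 10 not called. These counts describe letters in a window of fixed length and say nothing of binding.

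Most of the falls lay outside the gene lists. Of the 192 genes that fell, 50 were in the mitosis or DNA replication list and 53 in any list, and 177 had a symbol. The lists do not hold every gene of cell division. Cenpi, Cenpp, Kif15 and Plk4, of the same families as list members, also fell and stood outside the lists. They were named after their values were seen. The largest fall was that of Prl2c3, a proliferin of the prolactin family, at 71.6 and 297 FPKM at day 5 and at 11.5, 15.5 and 41.0 at day 14 (log2 fold change −3.12 ± 0.43, SE; adjusted p = 0.0232, limma). Its near-identical neighbours in the same family could share its reads, so its level is uncertain. Ang2, of the angiogenin ribonucleases, which also has close copies, was at 6.44 and 17.8 FPKM at day 5 and at 1.02, 1.28 and 4.67 at day 14. Zfp365, a zinc finger protein, was at 18.6 and 37.8 FPKM at day 5 and at 5.04, 5.42 and 5.27 at day 14, with the 3 late libraries nearly level. Pif1, a DNA helicase, was at 9.51 and 9.71 FPKM at day 5 and at 0.997, 1.95 and 1.21 at day 14. Phgdh, which starts serine synthesis, was the single called member of the 25 amino acid and ER stress genes tested, at 120 and 196 FPKM at day 5 and at 65.5, 48.0 and 55.1 at day 14 (log2 fold change −1.49, adjusted p = 0.0380, limma). Of all genes tested 1.76% were called, so 1 call does not set that list apart.

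In this fit 85 genes rose and 192 fell, a balance that was 92 and 92 under scaling to recovered reads and 333 and 207 with limma-voom. AA467197, the mouse form of a small mitochondrial protein gene, was at 1.17 and 7.11 FPKM at day 5, at 2.06 to 11.3 at day 7, at 6.34 to 36.9 at day 10 and at 60.2, 119 and 119 at day 14. Its mean increased 24.0-fold (log2 fold change 4.72 ± 0.57, SE; adjusted p = 0.0192, limma). Igfbp5, which binds insulin-like growth factors, was at 0.587 and 0.417 FPKM at day 5 and at 38.3, 8.29 and 96.0 at day 14, so the late libraries were all higher but far apart from each other. Tgm2, a transglutaminase that cross-links proteins, was at 15.4 and 2.62 FPKM at day 5 and at 110, 53.4 and 171 at day 14.

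Has2, a hyaluronan synthase, was at 9.30 and 1.64 FPKM at day 5 and at 50.3, 31.7 and 47.5 at day 14 (log2 fold change 3.01 ± 0.58, SE; adjusted p = 0.0472, limma). Ccn1, a secreted matricellular protein, was at 30.9 and 4.67 FPKM at day 5 and at 87.1, 74.4 and 244 at day 14. Pdlim4, an actin-associated protein, was at 6.02 and 1.27 FPKM at day 5 and at 48.8, 18.7 and 85.8 at day 14, with an adjusted p of 0.0165 (limma), which no other rise went below. In these 3 genes the day 5 library numbered 2 was the lowest of all 5, and its day 14 partner was the lowest of the day 14 libraries. Slc28a3, a nucleoside transporter, was at 0.714 and 2.26 FPKM at day 5 and at 17.2, 11.6 and 6.62 at day 14. In the list of 27 matrix and proteolysis genes tested, 2 rose and none fell, against 0.540% and 1.22% of all genes tested. They were Plat, the tissue plasminogen activator, at 17.1 and 12.5 FPKM at day 5 and at 59.7, 48.8 and 46.7 at day 14, and Serpinb6b, a protease inhibitor, at 3.59 and 4.30 FPKM at day 5 and at 12.8, 14.0 and 15.8 at day 14.

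Of the 12 largest rises, 3 rested on few reads or on unusual features. The lincRNA BC037156 was at 1.37 and 0 FPKM at day 5 and at 10.4, 8.10 and 51.2 at day 14, from 5 recovered reads at day 5 in both libraries together and 254 at day 14. Trav13-2, a variable segment of the T cell receptor alpha locus, was at 1.51 and 0 FPKM at day 5, from 5 reads, and at 10.6, 15.3 and 14.2 at day 14, from 136. Snord123, a small nucleolar RNA gene, rested on 1 read at day 5 and 16 at day 14. The 10 leukocyte markers summed to 0.552 and 4.10 FPKM in the day 5 libraries and to 0.592 to 2.10 at day 14, with 2 of them, Adgre1 and Cd68, listed at 0 in all 5, 2 at a mean of 0.5 FPKM or more, and Cd79a, Cd52 and Laptm5 the most abundant. Their part in the Trav13-2 values was not tested.

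Lacrimal secretory genes were 4 of the rises, and none fell among 22 tested, against 0.540% rises and 1.22% falls among all genes tested. Wfdc18, a small secreted protein with a whey acidic protein domain, was at 270 and 10.3 FPKM at day 5 and at 1455, 106 and 2054 at day 14. Its values overlapped between the days, because day 14 replicate 2 lay below day 5 replicate 1, and within each number the day 14 value was the higher. Pglyrp1, an antibacterial peptidoglycan recognition protein, was at 6.40 and 5.70 FPKM at day 5 and at 25.2, 49.4 and 46.0 at day 14 (log2 fold change 2.54 ± 0.44, SE; adjusted p = 0.0354, limma). Lcn2, lipocalin 2, which withholds iron from bacteria, was at 0.224 and 0.112 FPKM at day 5 and at 6.03, 1.71 and 10.7 at day 14. Ltf, lactoferrin, the iron-binding protein of tears, was listed at 0 in both day 5 libraries and was at 1.27, 2.18 and 3.21 FPKM at day 14, from 198 recovered reads. Its fitted log2 fold change of 1.52 (adjusted p = 0.0280, limma) depends on the pseudocount and is no measure of its fold. The median log2 fold change of the list was 0.82, 9 of the 22 had day 14 values above both day 5 values, against 14.5% of all genes tested, and 0 had values below them. The other direction was held by 4 members, named after their values were seen. Of these, Mucl2, Scgb1b3 and Scgb2b2, abundant secretory products of the adult LG, were read in the same 2 libraries, day 5 replicate 2 and day 14 replicate 3, and were listed at 0 in the other three. Mucl2 was at 58.3 and 40.4 FPKM in those 2, and Aqp3, a glycerol and water channel, was at 509 and 2730.0 FPKM at day 5 and at 76.9, 2448 and 225 at day 14. Another 7 members of the list, Lyz1 and the secretory regulators Bhlha15 and Spdef among them, were listed at 0 in all 11 libraries. Gapdh was too, so such values cannot be read as absence. Aqp5, the water channel of acinar cells, was listed at 0 in 4 of the 5 libraries and at 0.270 FPKM in day 14 replicate 2.

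Inflammatory mediators included 3 rises and no fall among 24 tested, against 0.540% rises and 1.22% falls among all genes tested. Il1a, an interleukin of stressed epithelium, was at 1.79 and 10.8 FPKM at day 5 and at 11.9, 71.2 and 69.6 at day 14 (log2 fold change 2.69 ± 0.40, SE; adjusted p = 0.0250, limma). Cd14, the co-receptor of bacterial lipopolysaccharide, was at 81.3 and 22.5 FPKM at day 5 and at 253, 100.2 and 371 at day 14. Cx3cl1, a membrane-bound chemokine, was at 48.2 and 8.48 FPKM at day 5 and at 151, 45.5 and 86.3 at day 14, where the lowest late library lay just below the higher early one. Cxcl5, a neutrophil chemokine, was at 174 and 36.5 FPKM at day 5 and at 546, 134 and 729 at day 14 and did not pass the test (adjusted p = 0.0604, limma). The list median was 0.86, and 14 of the 24 members had day 14 values above both day 5 values, against 14.5% of all genes tested.

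Growth factor pathways had single members called, as did the hypoxia and glycolysis list. Of all genes tested 1.76% were called, so 1 call does not set any of these lists apart. Dusp5, a phosphatase that acts on ERK and is induced by it, was at 15.5 and 16.9 FPKM at day 5 and at 36.4, 157 and 63.5 at day 14 (log2 fold change 2.32 ± 0.41, SE; adjusted p = 0.0374, limma). It was the one called among 21 EGF and FGF receptor pathway genes, of which 9 had day 14 values above both day 5 values, against 14.5% of all genes tested. Sp5, a transcription factor induced by Wnt, was the one called among 19 Wnt genes, at 0.392 and 0 FPKM at day 5 and at 5.13, 1.77 and 6.07 at day 14, from 7 and 235 reads. Vegfa, the endothelial growth factor, was the one called among 28 hypoxia and glycolysis genes, at 17.6 and 15.1 FPKM at day 5 and at 52.6, 45.3 and 133 at day 14. Ldha, the lactate dehydrogenase of glycolysis, was at 1562 and 1554 FPKM at day 5 and at 793, 984 and 1041 at day 14, lower in each late library but not past the test (adjusted p = 0.116, limma).

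**Figure D4:**
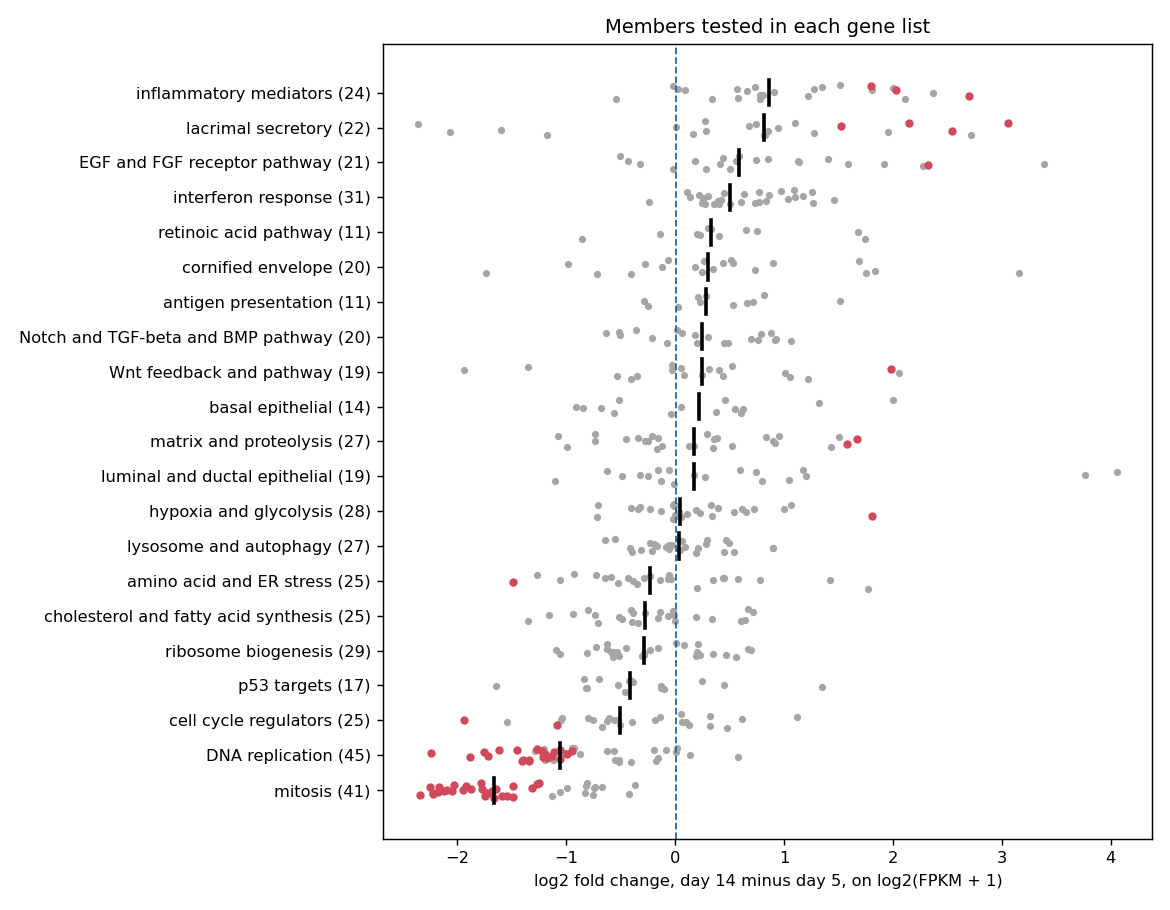
Log2 fold change of day 14 minus day 5 for each tested member of 21 gene lists, ordered by the list median (black bar), with called genes in red, the others in grey and the median of all genes tested as a dashed line. The mitosis and DNA replication lists stand lowest, with medians of −1.66 and −1.06, and the inflammatory mediators highest, with 0.86.

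In 11 of the 21 lists, with 11 to 31 genes tested each, limma called no gene, against 1.76% called of all genes tested. They were the basal, the luminal and ductal and the cornified envelope lists, interferon response, antigen presentation, the Notch, TGF-beta and BMP list, cholesterol and fatty acid synthesis, ribosome biogenesis, p53 targets, lysosome and autophagy, and the retinoic acid pathway. At the share of all genes called, lists of this size can hold none, so the lack of a call does not set them apart. At an unadjusted p under 0.05 these lists had 3 to 12 genes each, against 22.0% of all genes tested, and limma-voom on recovered reads called 0 to 3. The median log2 fold change of interferon response genes was 0.50 and 30 of 31 lay above 0, against 50.5% of all genes tested, and 10 had day 14 values above both day 5 values, against 14.5%. Among its most abundant members were Bst2, which holds virus particles at the cell surface, at 42.7 and 19.8 FPKM at day 5 and at 126, 21.3 and 235 at day 14, and Slfn2, of the schlafen family, at 16.0 and 29.8 FPKM at day 5 and at 36.7, 45.5 and 72.9 at day 14. Neither passed the test (adjusted p = 0.255 and 0.230, limma). In the luminal and ductal list, the mucosal keratin Krt13 was at 1.55 and 0.324 FPKM at day 5 and at 0.493, 863 and 0.661 at day 14, its log2 fold change of 4.06 resting on 1 library (adjusted p = 0.296, limma), and it was named after its values were seen. In the antigen presentation list, B2m, the light chain of class I molecules, was at 420 and 616 FPKM at day 5 and at 481, 637 and 1167 at day 14, and its values overlapped.

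Of 29 ribosome biogenesis genes, 13 had day 14 values below both day 5 values, against 17.8% of all genes tested, and 4 above, against 14.5%, with a median log2 fold change of −0.29. Pes1, a factor of large subunit assembly, was at 133 and 132 FPKM at day 5 and at 104, 74.6 and 75.1 at day 14, and Bop1, its partner, at 133 and 125 and at 100.3, 68.6 and 55.2. Of 25 cholesterol and fatty acid synthesis genes, 7 lay below and 2 above, against the same 17.8% and 14.5%, with a median of −0.27. Fads2, a fatty acid desaturase, was at 263 and 295 FPKM at day 5 and at 96.4, 110 and 171 at day 14. When each library was scaled to its own recovered reads the median of all genes moved from 0.01 to 0.17, and these list medians became −0.06 and −0.09, so they are given relative to a shift of that size. That of the mitosis genes became −1.48 and that of the inflammatory mediators 1.09. Under this scaling 92 genes rose and 92 fell, and limma-voom on recovered reads called 333 rises and 207 falls, so the share of rises among the calls was 30.7%, 50% and 61.7% in the 3 fits.

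Other abundant members of the lists were mostly without a call, and their values show how far single libraries reached. Hbegf, an EGF receptor ligand, was at 11.8 and 17.2 FPKM at day 5 and at 37.8, 88.1 and 73.0 at day 14, above both early values without passing the test (adjusted p = 0.0785, limma). Dhrs3, a retinal reductase induced by retinoic acid, was at 2.05 and 1.61 FPKM at day 5 and at 6.59, 7.95 and 10.2 at day 14 (adjusted p = 0.101, limma). Serpinb5, the epithelial serpin maspin, was at 274 and 473 FPKM at day 5 and at 128, 210 and 206 at day 14 (adjusted p = 0.0698, limma). These 3 genes did not overlap between the days.

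Krt15, a basal keratin, was at 36.2 and 20.4 FPKM at day 5 and at 5.08, 719 and 18.7 at day 14, so that 1 late library numbered 2 held nearly all of it. Ngfr, the nerve growth factor receptor of basal cells, was at 35.9 and 4.88 FPKM at day 5 and at 14.1, 118 and 68.8 at day 14. H2-Ab1, a class II histocompatibility chain, was at 0.647 and 0.901 FPKM at day 5 and at 0.891, 3.36 and 46.1 at day 14, with the high value in replicate 3. In each of these genes 1 or 2 day 14 libraries stood above the rest while another lay at or below a day 5 value. Perp, a desmosomal p53 target, was at 1439 and 3723 FPKM at day 5 and at 735, 1997 and 1003 at day 14, lower at day 14 within both numbers but overlapping between the days. The lysosomal protease gene Ctsd was at 499 and 655 FPKM at day 5 and at 530, 343 and 532 at day 14, which overlapped. Trp53, which encodes p53, was at 141 and 149.6 FPKM at day 5 and at 126, 96.7 and 91.1 at day 14, below both early values without passing the test (adjusted p = 0.205, limma).

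The labels name the cells lacrimal gland stem cells, and the study marks them by Krt14, Krt5, P63 and nestin. It found Krt14 protein at a high level in all sphere cells at day 7. By qRT-PCR it reported significantly less Krt14 with longer culture, and significantly more Krt19, Aqp5 and Ltf at day 14. Whether low FPKM values of these genes reflect low expression was not tested. Krt14 was at 11.9 and 11.6 FPKM at day 5 and at 4.66, 8.18 and 3.35 at day 14, lower in each late library without passing the test (log2 fold change −0.85 ± 0.33, SE; adjusted p = 0.188, limma). Krt5, its partner keratin, was at 1.34 and 5.52 FPKM at day 5 and at 0.461, 2.05 and 1.54 at day 14. Trp63, which encodes P63, lay between 0.0351 and 0.750 FPKM and Nes, which encodes nestin, between 0 and 0.0938 in the 5 libraries, and both were below the level tested. Krt19, a ductal keratin, was at 0.190 and 0 FPKM at day 5 and at 1.03, 0.0606 and 0.714 at day 14. Among basal genes Krt17, a keratin, was the most abundant, at 3552 and 5800 FPKM at day 5 and at 3079, 1580 and 3011 at day 14.

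Other cell types were read from marker lists. The epithelial markers summed to 754 and 1440 FPKM at day 5 and to 628 to 2724 at day 14, with Epcam and Krt8 listed at 0 in all 5 libraries and Cdh1, E-cadherin, at 388 to 894. The study detected Epcam protein in the sphere cells, and Gapdh was also listed at 0. The listed 0s of this and the other marker lists are therefore no sign that a gene or cell type was absent. Fibroblast markers summed to 1.10 and 1.52 FPKM at day 5 and to 2.58 to 5.60 at day 14, with Pdgfrb listed at 0 in all 5. Endothelial markers summed to at most 0.393 FPKM, leukocyte markers to at most 4.10, skeletal muscle markers to at most 0.387 and adipocyte markers to at most 0.214 in any of the 5, with Kdr, Emcn, Adgre1, Cd68, Acta1, Myod1, Plin1 and Lep listed at 0. Of the myoepithelial markers, Acta2, smooth muscle actin, was at 9.31 and 4.72 FPKM at day 5 and at 24.9, 2.71 and 180 at day 14, so 1 late library was far above the rest, and Myh11 was listed at 0. The neural and Schwann cell markers summed to 15.3 and 66.7 FPKM at day 5 and to 1.93 to 8.22 at day 14, and among them Tubb3, a neuronal tubulin, was at 14.4 and 65.1 FPKM at day 5 and at 0.180, 7.04 and 0.709 at day 14 without passing the test (adjusted p = 0.0810, limma). Only 6 epithelial, 3 fibroblast, 2 leukocyte, 2 myoepithelial and 2 neural and Schwann cell markers reached the level tested. For endothelial, skeletal muscle and adipocyte markers the number was 0. None of the markers tested was called, and those below the level could not be. The part of such cells in the results was not tested.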

How the data were processed

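RNA of mouse LGSC spheres and LG was sequenced from poly(A) mRNA. Per the labels and the submitters' processing notes, reads were called with CASAVA 1.8, aligned with HISAT2 2.0.5 to NCBIM37 and counted with featureCounts 1.5.0-p3. The authors deposited 1 FPKM value per gene and library, and how counts became FPKM is not given in the sources used here. Values keep the steps of whole reads. With GENCODE M21 exon lengths, 93.2 to 93.5% of values up to 1000 reads came out whole within 0.01, giving 7201152 to 8025471 reads per passage 2 library. Gene names matched by Ensembl identifier, and promoter windows are of RefSeq GRCm38.p6, another build than the submitters name, so that coordinates are those of GRCm38.

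Of 63862 genes, 15734 whose 5 libraries averaged 0.5 FPKM or more were tested with limma 3.58.1 (R 4.3.3) on log2(FPKM + 1), with culture day and replicate number as terms, trend in the variance, and Benjamini-Hochberg adjustment. The 3618 assembled loci without a gene name were kept. Deviations of same-numbered libraries from their day means correlated at 0.260 to 0.726 in all 15 pairs, against −0.609 to 0.446 in 30 pairs of other numbers. Deviations from means of 2 or 3 libraries by themselves push pairs of other numbers down. Libraries numbered 1 correlated with those numbered 3 at 0.131 to 0.446, against 0.260 to 0.507 within each of these numbers. The correlations set number 2 apart and do not show that numbers 1 and 3 pair libraries. The block was kept because the rule asked for it. No pair of the compared libraries agreed within sampling noise. The members and lists were chosen with earlier results of these data known. Named were the 12 largest called rises and falls among genes with a symbol, a mean of at least 1 FPKM and days that did not overlap, 2 to 8 members of each list by size of called change and otherwise by level, and the study's marker genes. Scripts were tested on simulated data. Alternatives changed the pseudocount, filter, block, scaling, model and libraries used. A few members that the naming rule selects are not reported here.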

Additional observations from a re-analysis of the deposited data

How the results depend on the processing

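The number of calls depended strongly on the processing. None of the 45 called genes selected by the naming rule changed direction under any alternative that tested it. Their choice on the same libraries largely fixes that direction. With the 11 libraries and no replicate block 2 genes were called, 0 higher and 2 lower, with 1 mitosis and 0 DNA replication genes. With the 5 libraries alone, with a replicate block, without one and with a random one, 0 were called, and likewise 0 without the day 7 libraries, without the day 10 libraries and without the 4 libraries numbered 2, the last an alternative chosen after seeing the data. With no filter on low values 44 were called, 7 higher and 37 lower, with 14 mitosis and 2 DNA replication genes, over 36168 genes tested. With at least 10 recovered reads in each of the 5 libraries, 504 were called, 137 higher and 367 lower, with 32 DNA replication genes, over 8929. Scaling to recovered reads gave 184, with 92 lower and 7 DNA replication genes, and limma-voom 540, with 333 higher. Leaving out 1 library gave 0 to 1010 calls, 0 to 358 higher and 0 to 652 lower, 0 to 29 mitosis and 0 to 23 DNA replication genes. Between days 5 and 7 a pseudocount of 0.1 gave 1 call, no filter 3 and no day 10 libraries 1, with 0 to 20 when 1 library was left out. Between days 7 and 10 no filter gave 2. Between days 10 and 14 a pseudocount of 0.1 gave 1 and no filter 3, with 0 to 1 when 1 library was left out. A pseudocount of 0.1, genes with a symbol alone and median ratio scaling kept the count of all calls within 1.5 times. The causes were not tested. The median of the amino acid and ER stress genes turned from −0.23 to 0.02 under scaling to recovered reads. Fewer than 10 reads lie behind the day 5 values of several rises, which limits their folds.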

Other observations

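Some called genes outside the lists and the naming rule were picked out after their values were seen. Cebpa, a transcription factor of cell differentiation, was at 196 and 744 FPKM at day 5 and at 90.7, 120 and 98.5 at day 14. Nqo1, a quinone reductase of the oxidative stress response, was at 98.1 and 217 FPKM at day 5 and at 27.2, 48.6 and 34.1 at day 14. Both genes fell (limma) with late libraries below both early ones, and in both the day 5 library numbered 2 was far above that numbered 1. Among genes not called, Wnt10a, a Wnt ligand, was at 60.8 and 253 FPKM at day 5 and at 6.23, 116 and 16.5 at day 14, and Mdm2, the ligase that degrades p53, was at 85.1 and 473 FPKM at day 5 and at 74.9, 50.01 and 110.5 at day 14.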
